A study of Mus musculus with 36 samples.

Results

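Liver and a subcutaneous fat depot were compared in their response to calorie restriction, gene by gene. For each gene the log2 fold change of calorie-restricted (CR) over ad libitum fed (AL) mice in liver was subtracted from that in inguinal white adipose tissue (iWAT, the fat pad of the groin). The libraries fall into CR iWAT, AL iWAT, CR liver and AL liver, with 6 libraries in each, which makes 24 of the 36 libraries of the series. All mice were C57BL/6J and had been on their diet for 16 weeks. By the numbers in the labels all 6 CR animals gave both tissues, and 5 AL animals did, with 1 more AL animal in each tissue. Age, sex, the extent of the restriction and the hour of sampling were not given in the sources used here, so diet and the hours passed since feeding cannot be told apart. Both tissues were frozen whole, and in such bulk RNA fewer cells of a type and less RNA per cell cannot be told apart.

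A gene entered if it stood in both of the authors' deposited gene tables of CR minus AL, which held for 12012 of the 15919 genes in either table and of the 16021 in any gene table of a diet against AL. The iWAT table held a further 3283 genes and the liver table a further 624, for which no difference can be formed. Of the 12012 genes, 339 had a liver level at least 16 times their iWAT level and were set apart, because liver RNA in a fat sample would move them, and 11673 remained. The tables give a log2 fold change and a likelihood-ratio statistic per gene but no value per library, so the spread over mice and the depth of each library are unknown. The approximate standard error after each ± sign is the absolute fold change on the log2 scale divided by the square root of that statistic. The words rose and fell are used of a tissue where the authors' FDR (adjusted p) was under 0.05. A gene is said to differ between the tissues where an approximate z test of the difference, 2-sided and Benjamini-Hochberg adjusted over the 12012 genes, gave an adjusted p under 0.05, and "higher" then means a higher CR minus AL value in iWAT.

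The liver makes cholesterol, glucose and fat for export, and it burns fatty acids when food is absent. White fat stores triglyceride after meals and releases it between meals, and its cells take up glucose under the control of insulin. Calorie-restricted mice usually eat their ration at once and then fast, and in such mice lipid synthesis in fat is known to alternate with lipid use.

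Of 11673 genes, 369 (3.16%) were higher in iWAT and 307 (2.63%) were lower, together 676 (5.79%). These counts rest on the errors assumed, and were 165 and 99 under a t distribution with 20 degrees of freedom and 112 and 59 with standard errors 25% larger. An unadjusted p under 0.05 was found for 2005 genes. The differences called had a median size of 1.31 log2 units and the smallest was 0.73, while 527 reached 1 log2 unit. Over all genes the median difference was 0.04, so the shift between the tables was small beside the differences called. With both tables centred on their medians 325 genes were higher and 354 lower, so which direction held more genes depended on this shift. Genes are not independent replicates, and across them the iWAT and liver log2 fold changes had r = 0.110, and r = 0.141 over the 1785 genes that passed the FDR in either tissue, both given as descriptions. The libraries of the tissues come largely from the same mice.

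In iWAT 450 genes (3.86%) rose and 312 (2.67%) fell in the authors' deposited table, and in liver 588 (5.04%) rose and 579 (4.96%) fell. These shares of all genes stand beside the rose and fell counts of each list below. A rise in both tissues was seen for 81 genes (0.694%), which are 18% of the genes that rose in iWAT and 13.8% of those that rose in liver. A fall in both was seen for 21 (0.18%), which are 6.73% of the genes that fell in iWAT and 3.63% of those that fell in liver. A further 29 (0.248%) rose in iWAT and fell in liver, and 13 (0.111%) fell in iWAT and rose in liver. The 29 are part of the 450 that rose in iWAT, while 4.96% of all genes fell in liver. The 13 are part of the 312 that fell in iWAT, while 5.04% of all genes rose in liver. Neither share of the iWAT genes is far from that of all genes. All 29 and all 13 of these opposite genes differed by the z test, which their selection largely fixes. A call in 1 tissue alone is not a difference between them. Of 340 genes that rose in iWAT alone, 186 differed by the z test, as did 146 of 278 that fell there alone, 86 of 494 that rose in liver alone and 92 of 529 that fell there alone. The median standard error was 0.284 in iWAT and 0.151 in liver, so a change of a given size was measured less precisely in iWAT.

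**Figure D1:**
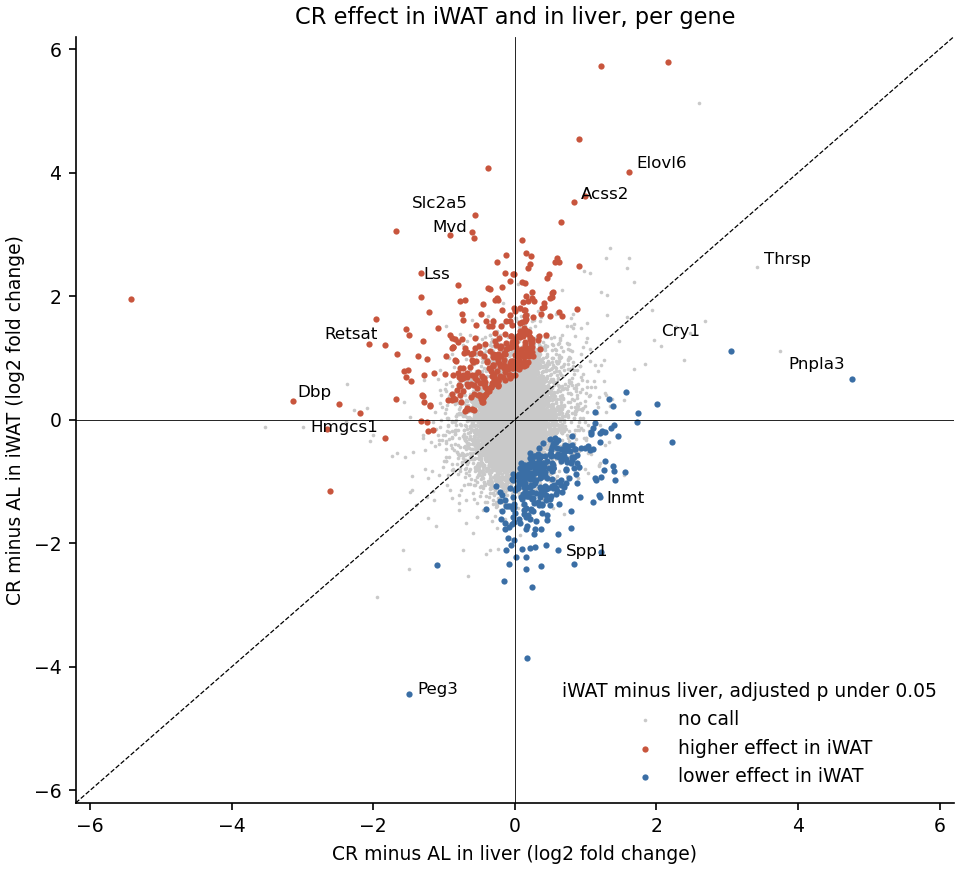
CR minus AL in liver (x axis) against CR minus AL in iWAT (y axis), both as log2 fold changes, for 11673 genes, with the 369 genes of higher effect in iWAT in red, the 307 of lower effect in blue and the others in grey. The dashed line marks equal effects, and the cloud does not follow it (r = 0.110).

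Of 12 adipocyte markers, Adipoq, Plin1, Lep and Retn stood in the iWAT table alone, and the other 8 stood in both tables. Those 8 had log2 mean CPM values of -0.34 to 4.94 in liver. The 14 hepatocyte markers had values of 9.25 to 16.47 in liver. Hepatocyte markers were also measured in iWAT, where 11 of the 14 fell in the authors' deposited table, with a median of -3.99. Cyp2e1 was the 1 marker not set apart, at 0.49 in iWAT. The 13 markers set apart had a median standard error of 1.17 in iWAT. In liver 2 of the 14 rose. Of the 339 genes set apart 282 had negative iWAT values and 118 fell, with a median of -2.23, beside a median of 0.13 in liver. Of other marker lists, 1 of 9 endothelial genes fell in iWAT (Tek), 0 of 3 genes of mammary epithelium did (1 at an unadjusted p under 0.05, the authors' edgeR test), and in liver 3 of 5 erythroid genes rose with a median of 0.92. Among the genes set apart the difference was lower for 131 and higher for 2. Among the 114 genes with a liver level 8 to 16 times that of iWAT the median iWAT value was 0.05 and 7 were higher and 9 lower, so the downward shift of the set apart genes was not seen in these. Just inside the threshold lay Ehhadh (gap 4.01 log2 units, difference 2.00) and Insc (4.02, -1.66), and just outside it Pm20d1 (3.99, 0.75) and Slc19a2 (3.99, -0.14).

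**Figure D2:**
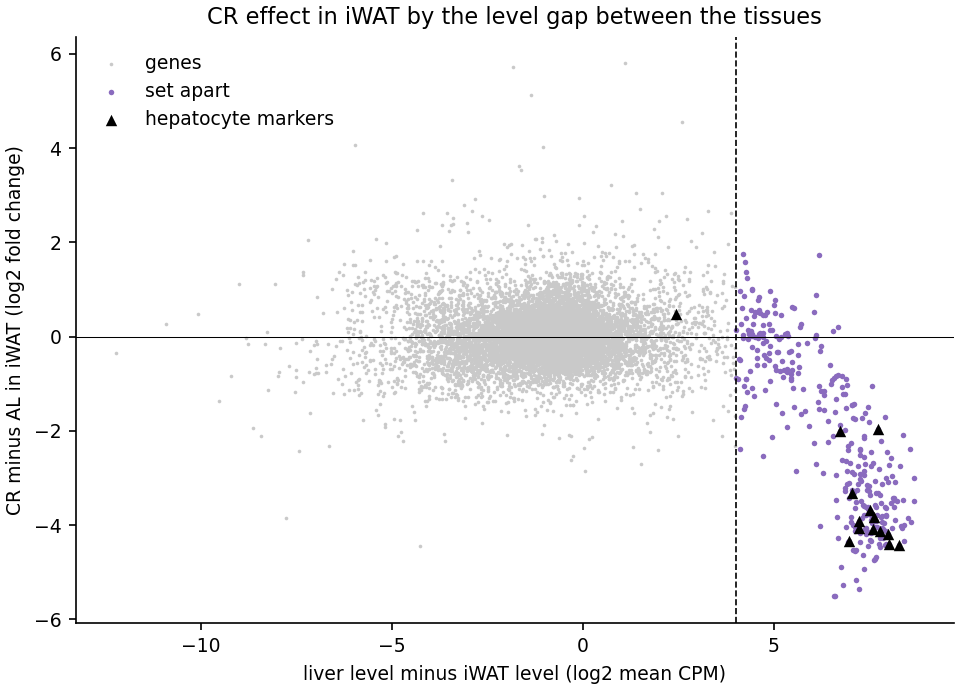
CR minus AL in iWAT (y axis, log2 fold change) against the liver level minus the iWAT level (x axis, log2 mean CPM) for 12012 genes, with the 339 genes set apart in purple right of the dashed line at 4 and the hepatocyte markers as triangles. The set apart genes reach far below 0 (median -2.23), while the 114 genes just left of the line have a median of 0.05.

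Cholesterol synthesis had the highest median difference of the 21 gene lists. Cells make cholesterol from acetyl-CoA through mevalonate, squalene and lanosterol, and the transcription factor SREBP2 switches on the whole route when sterols are scarce. Of 25 genes listed, 1 was in the liver table alone and 1 was set apart. Of the other 23, 19 were higher in iWAT, beside 3.16% of all genes, and 0 were lower at this threshold or at an unadjusted p under 0.05. The median difference was 2.39 log2 units, from a median of 1.33 in iWAT and -0.53 in liver, where the medians of all genes were 0.04 and -0.01. In iWAT 17 of the 23 rose, and in liver 10 fell and 3 rose (Pmvk, Insig1 and Ebp) in the authors' deposited tables. Every one of the 11 enzymes on the way from acetyl-CoA to lanosterol was higher, as were 5 of 8 on the way from lanosterol to cholesterol and 3 of 4 genes of regulation and uptake.

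The upstream sequences of a few of these genes are shown because SREBP2 and its partner NF-Y are known to bind upstream of genes of this route. They are taken from RefSeq, build GRCm38.p6, as the bases just before the start annotated there, 5′ to 3′ on the strand of the gene. For Lss this start lies inside the gene span that GENCODE gives. Capitals mark the NF-Y box (CCAAT, or ATTGG where it lies on the other strand) and the sterol response element (TCACNCCAC), each searched on both strands. Lss and Mvd had the largest differences of the pathway, Hmgcs1 holds both motifs, and Mvk shares its start region with Mmab, a gene of vitamin B12 metabolism that is read in the opposite direction.
Lss, chr10:76531355-76531604, plus strand: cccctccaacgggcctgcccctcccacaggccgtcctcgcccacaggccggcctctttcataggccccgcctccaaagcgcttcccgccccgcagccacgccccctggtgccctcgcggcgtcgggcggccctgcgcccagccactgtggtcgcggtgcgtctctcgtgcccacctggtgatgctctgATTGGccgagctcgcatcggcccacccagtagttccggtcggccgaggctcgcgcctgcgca
Mvd, chr8:122443423-122443672, minus strand: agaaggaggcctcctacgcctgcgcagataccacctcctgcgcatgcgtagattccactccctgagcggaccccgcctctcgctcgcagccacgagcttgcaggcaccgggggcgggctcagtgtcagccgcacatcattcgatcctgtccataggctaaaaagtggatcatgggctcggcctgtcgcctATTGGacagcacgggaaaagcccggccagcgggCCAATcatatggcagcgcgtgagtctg
Hmgcs1, chr13:119690101-119690350, plus strand: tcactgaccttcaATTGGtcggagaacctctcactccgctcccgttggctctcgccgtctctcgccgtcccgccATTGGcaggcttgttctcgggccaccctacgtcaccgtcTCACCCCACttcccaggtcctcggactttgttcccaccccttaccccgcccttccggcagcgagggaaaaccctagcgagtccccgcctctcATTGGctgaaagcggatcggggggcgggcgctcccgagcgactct
Mvk, chr5:114444061-114444268, plus strand: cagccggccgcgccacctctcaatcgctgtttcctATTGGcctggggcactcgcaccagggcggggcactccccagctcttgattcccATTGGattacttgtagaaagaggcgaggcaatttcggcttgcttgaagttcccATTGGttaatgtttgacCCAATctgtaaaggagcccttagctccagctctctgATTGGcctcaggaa
The 208 bases of Mvk are those that lie outside the annotated exons of Mmab, and they hold 5 NF-Y boxes. Hmgcs1 holds 3 NF-Y boxes and 1 sterol response element, Mvd 2 NF-Y boxes and Lss 1. Of the 19 genes of the list that differed, 14 had an entry, and 13 of these held an NF-Y box in the 250 bases, which 33.8% of 32851 promoters do. The sterol response element in this spelling was found in Hmgcs1 alone, and in 1.05% of all promoters. A match is a description of letters and not of binding.

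Among the genes shown, Mvd, mevalonate diphosphate decarboxylase (ENSMUSG00000006517, GRCm38 chromosome 8 from 122433601 to 122443422), had log2 fold changes of 2.94 ± 0.36 in iWAT and -0.58 ± 0.24 in liver in the authors' deposited tables. Its difference of 3.52 ± 0.43 was the largest of the list (95% interval 2.66 to 4.37, z test, adjusted p = 8.37e-13). Lss, lanosterol synthase (ENSMUSG00000033105, GRCm38 chromosome 10 from 76531588 to 76557138), had 2.17 ± 0.28 in iWAT and -0.81 ± 0.16 in liver in the authors' deposited tables, both past the FDR. The difference of Lss was 2.98 ± 0.32 (95% interval 2.35 to 3.61, z test, adjusted p = 1.88e-16). Lss thus rose in fat and fell in liver, whereas Mvd rose in fat and its liver value did not pass the FDR (0.104). Hmgcs1, the cytosolic HMG-CoA synthase at the entry of the route, differed without rising in fat: it had -0.29 ± 0.31 in iWAT (FDR 0.64) and -1.83 ± 0.18 in liver in the authors' deposited tables. Its difference was 1.54 ± 0.36 (z test, adjusted p = 0.0013).

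Some of the further steps moved in opposite directions. Pmvk, phosphomevalonate kinase, rose in both tissues, with 2.07 ± 0.29 in iWAT and 0.55 ± 0.17 in liver in the authors' deposited tables, and differed by 1.52 ± 0.33. Mvk, mevalonate kinase, had 1.03 ± 0.30 in iWAT and -1.37 ± 0.26 in liver in the authors' deposited tables. Idi1, isopentenyl diphosphate isomerase, had 1.28 ± 0.24 in iWAT and -1.30 ± 0.16 in liver, and Fdft1, squalene synthase, had 1.48 ± 0.25 in iWAT and -1.08 ± 0.15 in liver in the authors' deposited tables. Sqle, the squalene epoxidase that commits the route to sterols, had 1.92 ± 0.33 in iWAT and -0.77 ± 0.15 in liver in the authors' deposited tables. The 4 genes Mvk, Idi1, Fdft1 and Sqle rose in fat and fell in liver, and so did 3 that act after lanosterol. Of those, Cyp51 and Msmo1, which strip methyl groups from lanosterol, differed by 2.64 ± 0.32 and 2.72 ± 0.31. Hsd17b7, a sterol ketone reductase, had 1.33 in iWAT and -0.89 in liver in the authors' deposited tables. Mmab, the neighbour of Mvk and no member of the list, was named after its values were seen: it had 1.08 ± 0.25 in iWAT and -0.49 ± 0.13 in liver in the authors' deposited tables, both past the FDR, and differed by 1.57 ± 0.28.

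Other members rose in fat while their liver values did not pass the FDR. Acat2, which makes acetoacetyl-CoA, had 2.36 in iWAT and -0.03 in liver in the authors' deposited tables. Nsdhl, a sterol dehydrogenase, had 2.37 in iWAT and -0.13 in liver, and Dhcr7, the last reductase, 2.13 in iWAT and -0.37 in liver in the authors' deposited tables. All 3 differed by the z test. Fdps, farnesyl diphosphate synthase, had 2.11 in iWAT and -0.34 in liver in the authors' deposited tables. Insig1, which holds SREBP in the endoplasmic reticulum, rose in both tissues, with 2.56 ± 0.39 in iWAT and 0.57 ± 0.19 in liver in the authors' deposited tables, and still differed by 1.98 ± 0.43. Srebf2, the gene of SREBP2 itself, had 0.52 in iWAT, not past the FDR, and -0.53 in liver in the authors' deposited tables, and it differed by 1.05 ± 0.32 (z test, adjusted p = 0.0239). The members that did not differ by the z test were Tm7sf2 (1.05), Stard4 (0.89), Sc5d (0.52) and Ebp (-0.05). For Ebp, an isomerase late in the route, the 95% interval of the difference was -0.58 to 0.49.

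**Figure D3:**
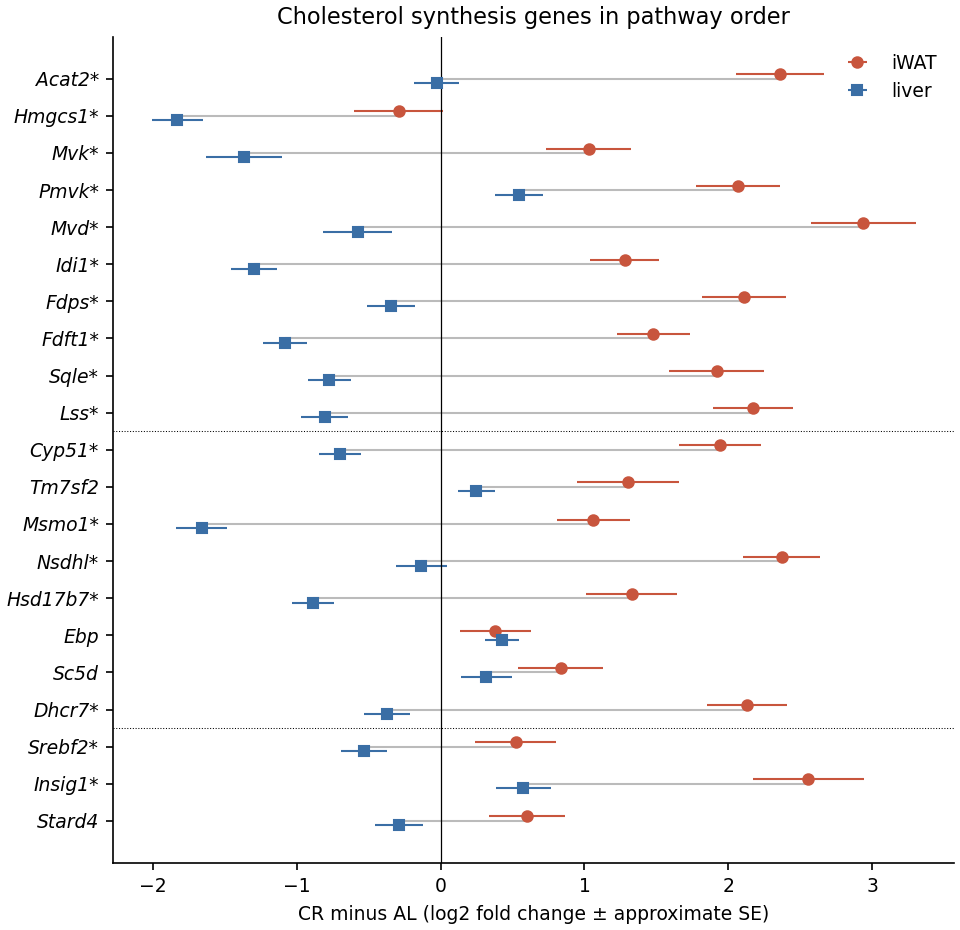
CR minus AL in iWAT (red circles) and in liver (blue squares) for 21 genes of cholesterol synthesis in pathway order, as log2 fold change on the x axis with approximate standard errors as bars, and an asterisk where the difference passed the z test at adjusted p under 0.05. Dotted lines part the steps to lanosterol, the later steps and the genes of regulation and uptake; 20 of the 21 iWAT points lie right of their liver point, Ebp being the exception.

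Genes outside the sterol route also moved in opposite directions. Among genes whose log2 mean CPM reached 2 in both tissues, leaving out predicted genes and Rik clones, 21 rose in iWAT and fell in liver and 11 did the reverse. The largest difference of the first kind was that of Retsat, which reduces retinol (ENSMUSG00000056666, GRCm38 chromosome 6 from 72598475 to 72608425), with 1.21 ± 0.32 in iWAT and -1.84 ± 0.15 in liver in the authors' deposited tables. Its difference was 3.05 ± 0.35 (95% interval 2.36 to 3.74, z test, adjusted p = 1.02e-14). The other 7 of the 8 largest were the cholesterol genes Lss, Msmo1, Sqle, Cyp51, Idi1, Fdft1 and Mvk.

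In the reverse direction the largest difference was that of Spp1, osteopontin, a secreted protein of macrophages and bile duct cells (ENSMUSG00000029304, GRCm38 chromosome 5 from 104435118 to 104441050). It had -2.11 ± 0.51 in iWAT and 0.62 ± 0.19 in liver in the authors' deposited tables, and its difference was -2.73 ± 0.54 (z test, adjusted p = 8.62e-05). Of 13 macrophage markers 2 (Cd163 and Mrc1) fell in iWAT, and 9 had an unadjusted p under 0.05 (the authors' edgeR test). Their median in iWAT was -0.66, with values from -2.94 to 0.94, the lowest being that of Clec4f, a gene set apart. By the z test 0 of the 11 tested differed between the tissues. The part of macrophages in the result of Spp1 was not tested. Inmt, which methylates indoles and other amines, had -1.25 ± 0.25 in iWAT and 1.20 ± 0.18 in liver in the authors' deposited tables, and differed by -2.45 ± 0.31 (z test, adjusted p = 3.82e-12). Egfr, the receptor of epidermal growth factor, had -0.97 ± 0.29 in iWAT and 1.15 ± 0.36 in liver in the authors' deposited tables and differed by -2.11 ± 0.46. Abcb1a, a drug efflux pump, and Sucnr1, the receptor of succinate, differed by -1.90 ± 0.39 and -1.85 ± 0.33. The remaining 3 of this kind were Klhl13, an adaptor of a ubiquitin ligase (-2.43 ± 0.38), St5 (-1.72 ± 0.29) and Itih5, a hyaluronan-associated matrix protein (-1.61 ± 0.36).

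Transcripts of the same libraries gave the same signs. The most abundant transcript of each of the 8 named genes that rose in iWAT and fell in liver differed by the z test over all transcripts. For the 8 of the reverse kind all signs were kept and 6 passed, the others being those of Abcb1a and Klhl13. Transcripts come from the same reads as the genes and are no second measurement.

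Genes that rose in both tissues belonged in part to fat synthesis. The 6 named by the size of their smaller change were Thrsp, Acacb, Elovl6, Fasn, Lrtm1 and Acly. Thrsp, a nuclear protein that follows lipogenic feeding, had 2.47 ± 0.55 in iWAT and 3.42 ± 0.40 in liver in the authors' deposited tables, a difference of -0.94 ± 0.67 that did not pass (95% interval -2.26 to 0.38). For Fasn, fatty acid synthase, the values were 2.61 ± 0.70 in iWAT and 1.61 ± 0.28 in liver in the authors' deposited tables, and the interval of the difference was -0.47 to 2.48. These wide intervals allow differences of more than 1 log2 unit, so equal responses are not shown. Elovl6, which lengthens palmitate, did differ: it had 4.02 ± 0.49 in iWAT and 1.61 ± 0.16 in liver in the authors' deposited tables, and 2.40 ± 0.51 between them (z test, adjusted p = 3.52e-04).

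Genes that fell in both tissues included the clock gene Nr1d1, described with the clock, and an imprinted gene. Peg3, a paternally expressed zinc finger gene (ENSMUSG00000002265, GRCm38 chromosome 7 from 6703892 to 6730431), had -4.44 ± 0.45 in iWAT and -1.49 ± 0.21 in liver in the authors' deposited tables. It fell more in fat, with a difference of -2.95 ± 0.50 (z test, adjusted p = 9.14e-07). Vnn1, a pantetheinase and PPAR target, had -2.35 ± 0.32 in iWAT and -1.10 ± 0.16 in liver in the authors' deposited tables and also fell more in fat (-1.25 ± 0.35). Slc4a4, a bicarbonate transporter, had -1.26 ± 0.35 in iWAT and -1.24 ± 0.16 in liver, and Tns2, a protein of focal adhesions, had -1.14 ± 0.27 in iWAT and -0.92 ± 0.17 in liver in the authors' deposited tables. Their 95% intervals of the difference were -0.77 to 0.75 and -0.85 to 0.40. Ppfibp1, a liprin, had an interval of -0.64 to 0.50.

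**Figure D4:**
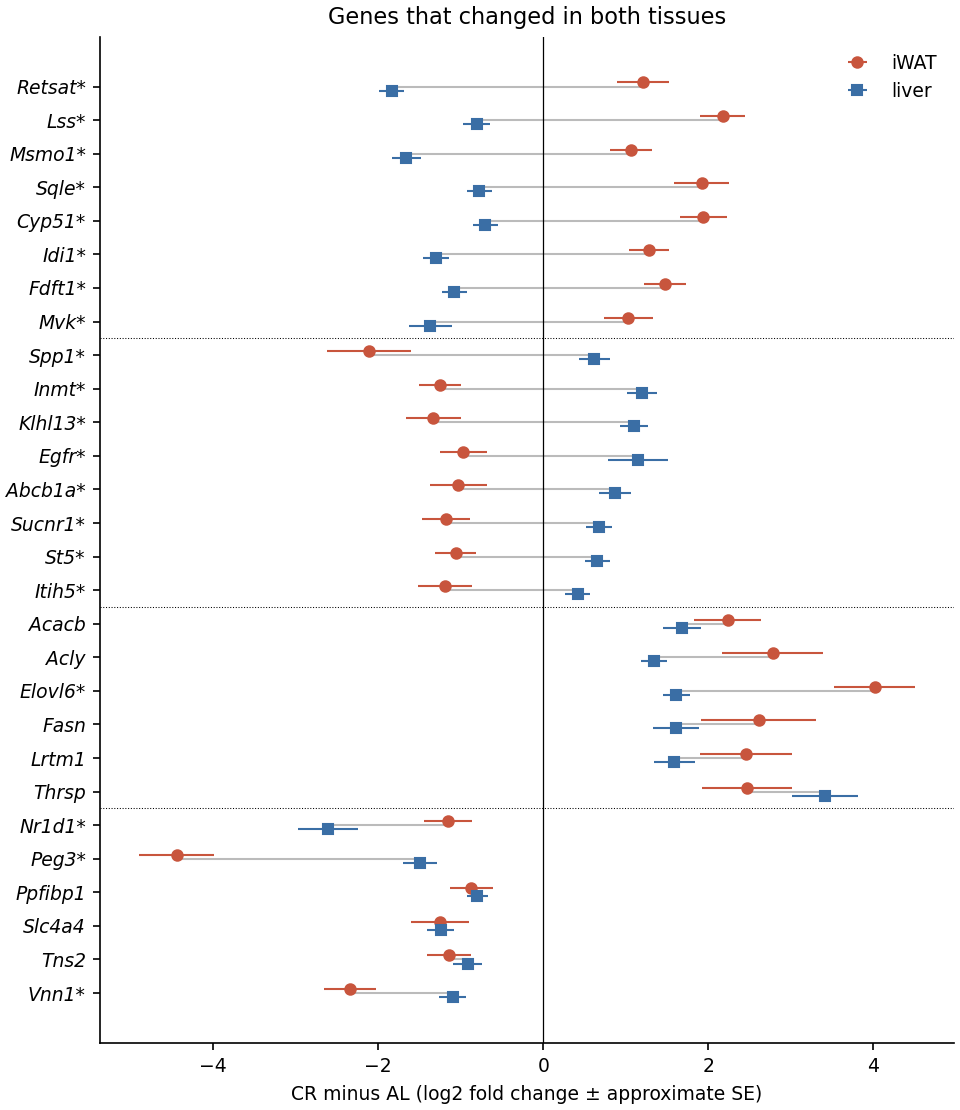
CR minus AL in iWAT (red circles) and in liver (blue squares), as log2 fold change on the x axis with approximate standard errors, for 16 genes that changed in opposite directions and 12 that changed in the same direction, with an asterisk where the difference passed the z test. Dotted lines part the 4 classes, and in the upper 16 rows the tissues lie on opposite sides of 0.

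The making of fatty acids and triglyceride involved genes that rose in both tissues, some of them more in fat. Of 31 genes listed 1 was set apart and 1, Pklr, was in the liver table alone, where it rose (1.47, the authors' deposited table). Of the other 29 genes, 12 were higher in iWAT and 1 was lower, beside 3.16% and 2.63% of all genes. The median difference was 1.00, from medians of 1.64 in iWAT and 0.62 in liver. Under errors 25% larger, 6 were higher. In iWAT 19 rose, and in liver 17 rose and 2 fell (Mogat1 and Elovl5) in the authors' deposited tables. Among the genes that supply acetyl-CoA, Slc25a1, which carries citrate out of the mitochondrion, had 2.91 ± 0.46 in iWAT and 0.10 ± 0.12 in liver in the authors' deposited tables and differed by 2.81 ± 0.47 (z test, adjusted p = 9.65e-07). Acss2, which makes acetyl-CoA from acetate, had 3.53 ± 0.36 in iWAT and 0.84 ± 0.18 in liver in the authors' deposited tables and differed by 2.69 ± 0.40 (z test, adjusted p = 1.04e-08). Acly, which cleaves the exported citrate, had 2.78 ± 0.61 in iWAT and 1.34 ± 0.15 in liver in the authors' deposited tables, with an interval of 0.20 to 2.68 that did not pass after adjustment (z test, adjusted p = 0.17).

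Suppliers of NADPH and of carbon for the same route followed. Me1, malic enzyme, had 2.53 in iWAT and 0.21 in liver in the authors' deposited tables, and Tkt, transketolase, had 2.61 in iWAT and 0.60 in liver in the authors' deposited tables. Both differed by the z test, as did Taldo1, transaldolase (adjusted p = 0.0122), but Pgd (0.89) and G6pdx (0.19) did not. Elovl3, an elongase of brown fat and of male liver, had 4.55 ± 1.05 in iWAT and 0.91 ± 0.27 in liver in the authors' deposited tables, with a difference of 3.64 ± 1.08 whose interval was wide (1.52 to 5.77). Mogat1, which acylates monoacylglycerol, had 0.79 ± 0.30 in iWAT and -1.56 ± 0.39 in liver in the authors' deposited tables and differed by 2.36 ± 0.49. Its most abundant transcript was scarce in liver, with a log2 mean CPM of -0.46 against 4.35 in iWAT. Srebf1, the gene of the lipogenic factor SREBP1, had 0.82 ± 0.37 in iWAT and 1.69 ± 0.26 in liver in the authors' deposited tables, and its difference did not pass (95% interval -1.75 to 0.01). Mlxipl, the gene of ChREBP, had a difference of 0.12 ± 0.37.

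The only member lower in iWAT was Pnpla3, a lipase-family gene of lipid droplets (ENSMUSG00000041653, GRCm38 chromosome 15 from 84167837 to 84187236), and it had the lowest difference of all genes named by the rule on extremes. It had 0.67 ± 0.35 in iWAT and 4.76 ± 0.29 in liver in the authors' deposited tables, a difference of -4.10 ± 0.46 (95% interval -5.00 to -3.20, z test, adjusted p = 2.04e-15). Its level was far higher in fat, with a log2 mean CPM of 9.61 in iWAT and 3.72 in liver over both diets.

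Genes of fatty acid oxidation diverged between the tissues. Enzymes of this route take long-chain acyl groups into mitochondria and shorten them to acetyl-CoA, and in liver the receptor PPARalpha induces them during a fast. Of 29 genes tested 18 were higher in iWAT and 2 were lower (Angptl4 and Vnn1), beside 3.16% and 2.63% of all genes. A further 7 were set apart. The median difference was 1.19, from 0.96 in iWAT and -0.25 in liver. In iWAT 16 rose and 1 fell (Vnn1), and in liver 2 rose and 12 fell in the authors' deposited tables. Cpt1b, the carnitine palmitoyltransferase of muscle and brown fat, had 2.38 ± 0.45 in iWAT and -1.33 ± 0.26 in liver in the authors' deposited tables. Its difference was 3.71 ± 0.52 (95% interval 2.70 to 4.72, z test, adjusted p = 4.04e-10). Cpt1a, the liver form of the same enzyme, had -0.63 ± 0.28 in iWAT and -0.51 ± 0.15 in liver in the authors' deposited tables, with an interval of the difference of -0.75 to 0.49.

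Within the mitochondrion the trifunctional protein genes moved in opposite directions. Hadha, its alpha subunit, had 1.59 ± 0.29 in iWAT and -0.40 ± 0.11 in liver in the authors' deposited tables and differed by 1.99 ± 0.31 (z test, adjusted p = 9.05e-08). Hadhb, its beta subunit, had 1.71 in iWAT and -0.48 in liver in the authors' deposited tables and differed by 2.19 ± 0.36. Etfdh, which passes the electrons on to ubiquinone, had 0.96 ± 0.25 in iWAT and -0.83 ± 0.12 in liver in the authors' deposited tables and differed by 1.79 ± 0.27 (z test, adjusted p = 2.06e-08). Slc25a20, the carnitine carrier, rose in fat alone, with 1.51 ± 0.26 in iWAT and -0.19 ± 0.10 in liver in the authors' deposited tables (1.70 ± 0.28). Acot2, a mitochondrial thioesterase, had 0.96 in iWAT and -0.84 in liver in the authors' deposited tables, but reads of Acot1 and Acot2 can be shared and their split is uncertain.

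Other targets of PPAR lay on both sides. Fgf21, a hormone made by the fasted liver, had 1.22 ± 0.61 in iWAT, not past the FDR, and -2.06 ± 0.39 in liver in the authors' deposited tables, and differed by 3.28 ± 0.73 (z test, adjusted p = 6.19e-04). It was scarce, with a log2 mean CPM of 0.78 in iWAT and -0.53 in liver. Cidec, which fuses lipid droplets, had -0.15 ± 0.42 in iWAT and -2.65 ± 0.27 in liver in the authors' deposited tables (z test of the difference, adjusted p = 8.54e-05). Adipocyte markers also moved in liver, where 5 of the 8 in the table fell and 1 rose with a median of -0.59, and their part in the value of Cidec was not tested. Angptl4, an inhibitor of lipoprotein lipase, went the other way, with -0.77 ± 0.33 in iWAT, not past the FDR, and 0.91 ± 0.19 in liver in the authors' deposited tables and a difference of -1.68 ± 0.38 (z test, adjusted p = 8.92e-04). Pdk4, which switches off pyruvate dehydrogenase, had 0.22 ± 0.37 in iWAT and 1.35 ± 0.22 in liver in the authors' deposited tables, and the difference of -1.12 ± 0.43 did not pass (z test, adjusted p = 0.0891). Under errors 25% larger, 10 members of the list were higher in place of 18 and 1 was lower in place of 2.

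Most genes of the TCA cycle, which burns acetyl-CoA in the mitochondrion, rose in fat. Of 17 genes 12 were higher in iWAT, beside 3.16% of all genes, and 0 lower (also 0 at an unadjusted p under 0.05, z test). All 17 differences were positive, with a median of 1.02. In iWAT 15 rose in the authors' deposited table, and in liver 0 rose or fell, with 1 positive at an unadjusted p under 0.05 (the authors' edgeR test). Pcx, pyruvate carboxylase, had 1.93 ± 0.45 in iWAT and -0.27 ± 0.17 in liver in the authors' deposited tables and differed by 2.21 ± 0.48 (z test, adjusted p = 4.76e-04). Its most abundant transcript, Pcx-201, differed by 1.01 ± 0.39 and did not pass (z test over all transcripts, adjusted p = 0.247). The transcript Pcx-202 differed by 4.67 ± 0.62 (z test over all transcripts, adjusted p = 1.01e-10). Of the pyruvate dehydrogenase complex Dlat differed by 1.68 ± 0.28, Pdhb by 1.40 ± 0.34 and Pdha1 by 1.35 ± 0.35. The count higher was 3 of 17 under errors 25% larger.

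The list of glycolysis and glucose output shares Pcx with the TCA list. Of 26 genes listed 3 were set apart and 3 were in the liver table alone, so no difference could be formed for the latter. Of those in liver alone, G6pc (1.84) and Pklr (1.47) rose and Slc2a2 (0.15) did not pass the FDR in the authors' deposited table. Of the 20 genes tested 11 were higher, Pcx among them, beside 3.16% of all genes. Among the 20 tested 0 were lower (0 lower also at an unadjusted p under 0.05, z test), and the median difference was 1.10. Of these 20, in iWAT 12 rose, and in liver 3 rose and 2 fell (Aldoa and Ldha) in the authors' deposited tables. Hk2, the hexokinase of insulin-responsive tissues, had 1.31 ± 0.31 in iWAT and -0.74 ± 0.30 in liver in the authors' deposited tables and differed by 2.05 ± 0.44 (z test, adjusted p = 3.27e-04). Its most abundant transcript was scarce in liver, with a log2 mean CPM of 0.51 against 7.86 in iWAT. Ldha, lactate dehydrogenase, had 1.16 ± 0.39 in iWAT and -0.70 ± 0.13 in liver in the authors' deposited tables and differed by 1.87 ± 0.41 (z test, adjusted p = 5.47e-04). Pkm, pyruvate kinase of muscle and fat, differed by 1.74 ± 0.41, Aldoa by 2.08 ± 0.50 and Gapdh by 1.47 ± 0.48. Pck1, which makes phosphoenolpyruvate from oxaloacetate, had -0.60 ± 0.42 in iWAT and 0.36 ± 0.32 in liver in the authors' deposited tables and a difference of -0.97 ± 0.53 that did not pass. The count higher was 4 of 20 under errors 25% larger.

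Many genes of the respiratory chain rose in fat, with smaller differences. Its complexes pass electrons to oxygen and pump the protons that drive ATP synthase. Of 75 genes 21 were higher in iWAT, beside 3.16% of all genes, and 0 lower (0 lower also at an unadjusted p under 0.05, z test). All 75 differences were positive, between 0.00 and 1.58 with a median of 0.73. In iWAT 53 rose and in liver 6 rose in the authors' deposited tables. By complex, 10 of 37 genes of complex I were higher, 2 of 4 of complex II, 5 of 9 of complex III, 3 of 10 of complex IV and 0 of 14 of complex V, where 6 had an unadjusted p under 0.05. No difference between complexes was tested. Cycs, cytochrome c, stood highest, with 1.54 ± 0.28 in iWAT and -0.04 ± 0.11 in liver in the authors' deposited tables and a difference of 1.58 ± 0.30 (z test, adjusted p = 3.28e-05). Next among the named genes were Uqcrfs1, the Rieske protein of complex III (1.07 ± 0.27), Ndufa10 (1.04 ± 0.27) and Ndufs1 (0.98 ± 0.26) of complex I. With a correlation of 0.3 between the tissues 39 genes were higher, and with standard errors 25% larger 1 was.

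Skeletal muscle markers had values of the same sign in iWAT as these oxidative and glycolytic genes. All 16 muscle markers had positive values in iWAT, between 0.56 and 2.84 with a median of 1.21, though 0 passed the FDR and 0 had an unadjusted p under 0.05 in the authors' deposited edgeR table. Their log2 mean CPM in iWAT ranged between 5.09 and 10.36, and 1 of them, Eno3, stood in the liver table. The part of muscle RNA in the values of Cpt1b, Cox7a1, Hk2, Pkm, the TCA cycle and the respiratory chain was not tested.

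Thermogenic genes could be compared in part, since 13 of the 26 listed stood in the iWAT table alone. The median difference over the 12 tested was 0.68. Of these 5 were higher, beside 3.16% of all genes, and 0 lower, with 1 lower at an unadjusted p under 0.05 (z test). Besides Cpt1b and Elovl3 the 5 higher genes were Cox7a1, a subunit of cytochrome oxidase found in muscle and brown fat (2.32 ± 0.61), Pank1, which makes coenzyme A (2.22 ± 0.44), and Letmd1, a mitochondrial protein (0.80 ± 0.27). Cox7a1 was scarce in liver, with a log2 mean CPM of -0.20 against 4.13 in iWAT. The level of Pank1 was 3.80 log2 units higher in liver than in iWAT, not far from the limit of 4. Ppargc1a, a coactivator that drives mitochondrial genes, had 0.46 ± 0.42 in iWAT and 0.17 ± 0.22 in liver in the authors' deposited tables, with a 95% interval of the difference of -0.65 to 1.21. Under errors 25% larger, 2 of the 12 were higher.

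In liver 17 proteasome genes fell in the authors' deposited edgeR table, while in fat 0 passed the FDR and 8 had a positive value at an unadjusted p under 0.05. The proteasome degrades proteins marked with ubiquitin. Of 40 genes 13 were higher in iWAT, beside 3.16% of all genes, and 0 lower (0 lower also at an unadjusted p under 0.05, z test). The median difference was 0.58, from 0.33 in iWAT and -0.27 in liver. Of the core particle 7 of 14 were higher and of the regulatory particle 6 of 20. Psmd4, a ubiquitin receptor, had 0.36 ± 0.22 in iWAT and -0.61 ± 0.12 in liver in the authors' deposited tables and differed by 0.97 ± 0.25 (z test, adjusted p = 0.00545). Psmd14, which removes ubiquitin, differed by 0.89 ± 0.24, and Psma5 of the core by 0.85 ± 0.24. All these differences were under 1 log2 unit, and with standard errors 25% larger 0 members passed.

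Other protein homeostasis lists are read beside the 3.16% higher and 2.63% lower of all genes. By the z test 0 of 30 cytosolic chaperones passed, with 2 higher at an unadjusted p under 0.05 and a median difference of 0.14. Of 78 cytosolic ribosomal proteins 0 passed and 0 had an unadjusted p under 0.05, with a median of -0.06 and a range of -0.59 to 0.28. Of 78 mitochondrial ribosomal proteins 1 passed, Mrps2 (1.00 ± 0.30), while 73 of the 78 differences were positive and the median was 0.36. Among 28 genes of the endoplasmic reticulum and the unfolded protein response 1 was higher, Asns, asparagine synthetase (1.43 ± 0.46), with a median of -0.06. Hspa5, the main chaperone of that compartment, had a difference of -0.07 ± 0.39. Neither Mrps2 nor Asns passed under errors 25% larger. Of 34 genes of autophagy and lysosomes 0 passed, with 4 higher at an unadjusted p under 0.05 (z test) and a median of 0.07.

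Some clock genes moved together in both tissues and others did not. The clock is a loop in which Arntl and Clock switch on Per, Cry and Nr1d genes, and Dbp is an output of it. Of 19 genes 4 were higher in iWAT, beside 3.16% of all genes. At the threshold 0 were lower, with 2 lower at an unadjusted p under 0.05 (z test), and the median difference was 0.30. Dbp had 0.26 ± 0.37 in iWAT and -2.49 ± 0.35 in liver in the authors' deposited tables and differed by 2.75 ± 0.51 (z test, adjusted p = 1.63e-05). Bhlhe41, a repressor, had 0.99 ± 0.32 in iWAT and -1.24 ± 0.23 in liver in the authors' deposited tables, past the FDR in opposite directions, and differed by 2.23 ± 0.40 (z test, adjusted p = 6.21e-06). Bhlhe41 was scarce in liver, with a log2 mean CPM of 0.90 against 4.58 in iWAT. Its paralog Bhlhe40 rose in both tissues, more in fat, with 1.97 ± 0.38 in iWAT and 0.50 ± 0.18 in liver in the authors' deposited tables. Nr1d1, the repressor REV-ERBalpha, fell in both, less in fat, with -1.16 ± 0.29 in iWAT and -2.61 ± 0.36 in liver in the authors' deposited tables and a difference of 1.45 ± 0.46. For Arntl, with -0.08 ± 0.36 in iWAT and 1.03 ± 0.27 in liver in the authors' deposited tables, the difference did not pass (z test, adjusted p = 0.12). Cry1 rose in both tissues, with 1.30 ± 0.38 in iWAT and 1.97 ± 0.16 in liver in the authors' deposited tables, and Per2 had a difference of -0.06 ± 0.37. As the sampling hour was not given, clock phase and diet cannot be told apart. Of the 19, 2 were higher under errors 25% larger.

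Hormone signalling genes differed in a few members, read beside the 3.16% higher and 2.63% lower of all genes. For both lists below, 1 higher gene of 20 is a share not far from that of all genes. Of 20 genes of insulin and growth hormone signalling 1 was higher, Hk2, and 3 were lower, of which 1 passed under errors 25% larger. Slc2a4, the insulin-dependent glucose transporter of fat and muscle, rose in both tissues, with 1.12 ± 0.32 in iWAT and 3.05 ± 0.51 in liver in the authors' deposited tables, with a difference of -1.94 ± 0.60 (z test, adjusted p = 0.0261). In liver it was scarce, with a log2 mean CPM of -0.34, against 8.65 in iWAT. Ghr, the growth hormone receptor, had -1.08 ± 0.37 in iWAT and 0.36 ± 0.14 in liver in the authors' deposited tables and differed by -1.44 ± 0.39 (z test, adjusted p = 0.00921). Igfbp3, a binding protein of IGF1, had -1.17 ± 0.27 in iWAT and 0.25 ± 0.14 in liver in the authors' deposited tables and differed by -1.42 ± 0.31 (z test, adjusted p = 4.57e-04). Igf1 itself had -0.09 ± 0.26 in iWAT and 0.62 ± 0.14 in liver in the authors' deposited tables, and the difference of -0.71 ± 0.29 did not pass. Of 20 genes that respond to glucocorticoids or FOXO, 1 was higher, Lcn2 (1.88 ± 0.63), and 3 were lower, Ddit4 (-1.30 ± 0.40), Dusp1 (-1.12 ± 0.34) and Klf15 (-1.05 ± 0.34), with a median of -0.55. Under errors 25% larger, 0 of these glucocorticoid or FOXO genes passed.

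Genes of the extracellular matrix had the lowest median difference of the lists. Matrix genes encode the fibres and their regulators between cells, which fat tissue remodels when its cells change in size. Of 38 genes 10 were lower in iWAT, beside 2.63% of all genes, and 0 were higher (0 higher also at an unadjusted p under 0.05, z test). All 38 differences were negative, with a median of -1.01, from -0.59 in iWAT and 0.18 in liver. In iWAT 6 fell, and in liver 9 rose in the authors' deposited tables. Thbs1 and Thbs2, thrombospondins that bind matrix and growth factors, differed most. Thbs1 had -2.22 ± 0.43 in iWAT and 0.17 ± 0.39 in liver in the authors' deposited tables and differed by -2.39 ± 0.58 (z test, adjusted p = 0.00216), and Thbs2 differed by -1.97 ± 0.38 (z test, adjusted p = 3.28e-05). In liver the most abundant Thbs1 transcript was scarce, with a log2 mean CPM of -0.08 against 4.70 in iWAT. Fbn1, fibrillin, differed by -1.52 ± 0.43 and Mmp14, a membrane-bound collagenase, by -1.22 ± 0.29. The collagen gene Col1a1 had -0.31 ± 0.32 in iWAT and 0.87 ± 0.25 in liver in the authors' deposited tables, and the difference of -1.18 ± 0.41 did not pass (z test, adjusted p = 0.0521). It too was scarce in liver, with a log2 mean CPM of 0.69 against 7.84 in iWAT.

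Progenitor markers leaned the same way. In iWAT the 9 markers of adipose progenitors had a median of -0.54 and 0 passed the FDR, with 4 at an unadjusted p under 0.05 in the authors' deposited edgeR table, and 2 of the 7 tested, Dpt and Cd34, were lower by the z test. Cd34 was scarce in liver, with a log2 mean CPM of 0.63 against 7.20 in iWAT. The part of progenitor cells in the matrix result was not tested. The count of lower matrix genes was 19 with a correlation of 0.3 between the tissues and 2 with standard errors 25% larger.

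In liver 15 interferon response genes fell in the authors' deposited edgeR table, and in fat 0 did, with 4 negative at an unadjusted p under 0.05. They are switched on by interferon, a signal of the antiviral response. Of 31 genes 8 were higher in iWAT, beside 3.16% of all genes, and 0 lower (0 lower also at an unadjusted p under 0.05, z test). The median difference was 0.37, from 0.07 in iWAT and -0.49 in liver. In iWAT 1 rose (Ifi27), and in liver 1 rose, in the authors' deposited tables. Isg15, a ubiquitin-like protein, had 0.38 ± 0.46 in iWAT and -1.30 ± 0.23 in liver in the authors' deposited tables and differed by 1.69 ± 0.52 (z test, adjusted p = 0.0239). Usp18, which removes it from proteins, had 0.29 ± 0.39 in iWAT and -1.28 ± 0.21 in liver in the authors' deposited tables and differed by 1.57 ± 0.44 (z test, adjusted p = 0.0121). Lymphocyte markers, which the inguinal lymph node would bring, were all positive in iWAT, with a median of 1.16 over 13 genes and 0 past the FDR or at an unadjusted p under 0.05 in the authors' deposited edgeR table. Their part was not tested, and with standard errors 25% larger 1 interferon gene was higher.

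The remaining lists held few genes that differed, beside 3.16% of all genes higher and 2.63% lower. Of 20 genes of branched-chain amino acid breakdown 2 were higher, Bckdk, the kinase that restrains it (0.99 ± 0.27), and Pcca (0.75 ± 0.25). Of 28 genes of the NRF2 and glutathione list 2 were set apart, 1 was in the iWAT table alone and 2 were in the liver table alone. Those 2, Gsta1 (1.38) and Gstm3 (1.26), rose in liver in the authors' deposited table. Of the 23 tested, Gstm4 (1.26 ± 0.32) and Srxn1 (1.21 ± 0.29) were higher and Gpx1 (-1.11 ± 0.34) was lower. Of 17 cell cycle genes 1 was higher, Mcm2, a subunit of the replicative helicase (1.57 ± 0.49), a share not far from that of all genes. Under errors 25% larger, 0 genes of these 3 lists passed.

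**Figure D5:**
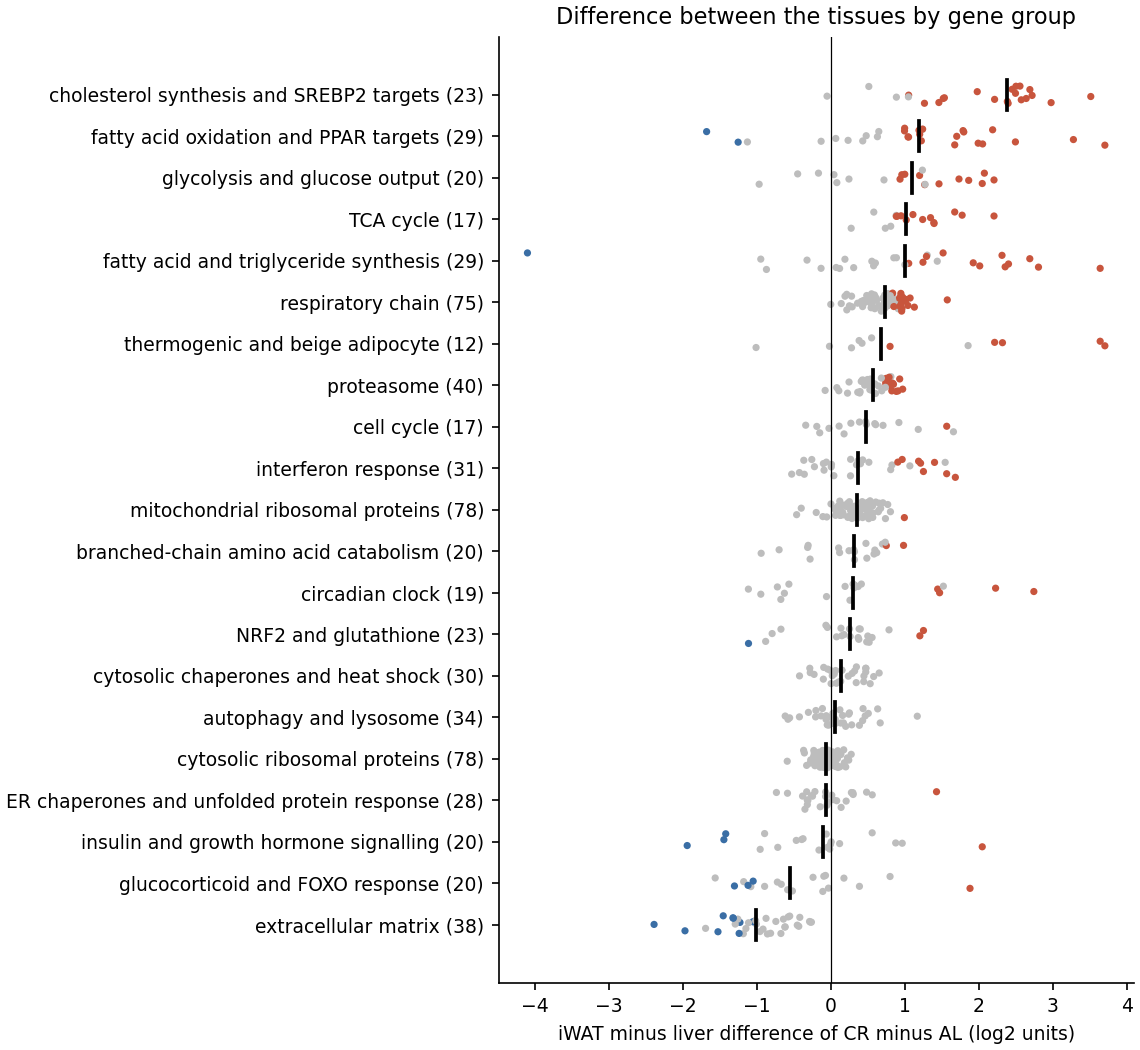
Difference of CR minus AL between iWAT and liver (x axis, log2 units) for the genes tested of 21 lists, 1 dot per gene, red or blue where the z test passed upward or downward and grey otherwise, with the list median as a black bar and the number of genes in brackets. Cholesterol synthesis has the highest median (2.39) and the extracellular matrix the lowest (-1.01).

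The extremes of the difference held genes outside the lists as well. Under the same limits on level and gene type, the highest was that of Slc2a5, the fructose transporter, with 3.32 ± 0.65 in iWAT and -0.56 ± 0.24 in liver in the authors' deposited tables and a difference of 3.88 ± 0.70 (95% interval 2.51 to 5.25, z test, adjusted p = 6.80e-06). Acot11, a thioesterase of brown fat, rose in both tissues, with 3.62 ± 0.35 in iWAT and 1.00 ± 0.17 in liver in the authors' deposited tables, and differed by 2.63 ± 0.39. These stood beside Elovl3, Retsat, Slc25a1, Dbp, Acss2 and the 5 cholesterol genes Mvd, Lss, Msmo1, Sqle and Cyp51, which completed the 12 highest.

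Of the 12 lowest, several encode secreted or matrix proteins. Adamtsl2, a matrix protein that binds fibrillin, differed by -2.73 ± 0.62, and Fbln5, an elastic fibre protein, had -1.77 ± 0.26 in iWAT and 0.38 ± 0.17 in liver in the authors' deposited tables and differed by -2.15 ± 0.32 (z test, adjusted p = 6.53e-09). Slc5a3, a carrier of inositol, had -2.22 ± 0.31 in iWAT and 0.02 ± 0.19 in liver in the authors' deposited tables and differed by -2.24 ± 0.36 (z test, adjusted p = 1.81e-07). Prg4, lubricin, differed by -1.99 ± 0.65. Agt, angiotensinogen, and C6, a complement protein, differed by -2.24 ± 0.52 and -1.98 ± 0.48, but both are abundant in hepatocytes. Their levels were 3.97 and 3.64 log2 units higher in liver, just under the limit of 4, and the part of hepatocyte RNA in their values was not tested. Pnpla3, Peg3, Spp1, Inmt, Klhl13 and Egfr completed the 12.

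The series also holds mice on a time-restricted diet without calorie restriction (TR), whose tables share the AL libraries with those of CR, so their values are given side by side without a comparison. For Lss TR minus AL was 2.22 in iWAT and -1.14 in liver, for Mvd 3.16 in iWAT and -0.93 in liver, and for Retsat 1.57 in iWAT and -1.72 in liver in the authors' deposited tables. For Pnpla3 these values were 0.70 in iWAT and 4.61 in liver, and for Cpt1b 1.85 in iWAT and -1.38 in liver in the authors' deposited tables. They are a selection of the named genes. For Egfr TR minus AL was -0.64 in iWAT and 0.60 in liver, and for Agt -0.72 in iWAT and 0.31 in liver. The hepatocyte marker Ahsg, set apart, had 2.19 in iWAT and 0.22 in liver under TR, and -3.83 in iWAT under CR. The TR values of Egfr, Agt and Ahsg did not pass the FDR in the authors' deposited tables.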

How the data were processed

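Total RNA of whole iWAT and liver was taken with Trizol and sequenced from TruSeq libraries, per the labels' protocols. The submitters' processing notes name bcl2fastq 2.20, STAR 2.5.3a, RSEM and build GRCm38.p5. The deposited tables hold pairwise edgeR comparisons, per the file headers, with no version, filter or normalization stated there. Deposited log2 columns hold a fold change and a mean level in CPM (counts scaled to library size). A deposited score column holds the likelihood ratio. Deposited p-value columns hold an unadjusted p and an FDR. Each table was normalized on its own as far as the files show, so levels compared between tissues are approximate.

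An interaction model needs values per library, which these tables do not hold, so the planned approximate z test was used, with both tissues taken as uncorrelated. Python 3.11.15, scipy 1.17.1, pandas 2.3.3 and statsmodels 0.14.6 were used. Depth per library is unknown, and no interval from counts is given. Replicates are taken as separate animals by the numbers in the labels. A number of the CR libraries also stands on a TR liver library, so the numbers alone do not settle this. Gene positions are from GENCODE M21 (GRCm38) and upstream sequences from RefSeq (GRCm38.p6).

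Named genes were the 12 highest and 12 lowest differences called at a log2 mean CPM of at least 2, the 8 largest opposite changes each way and the 6 largest shared changes each way. Up to 4 members of each list with the smallest adjusted p, a fixed set of 45 genes, and the marker genes were added. Where a list is described, further members are given as part of the whole list. The members, the 21 gene lists and the 9 marker lists were chosen with earlier results of these data known. Alternatives were a correlation of 0.3 or -0.3 between tissues, a t distribution with 20 degrees of freedom, standard errors 25% larger, centred tables, other level limits and transcripts. Values of a few list members are not reported here, though the counts and medians include them.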

Additional observations from a re-analysis of the deposited data

Results flagged for a closer look

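A test of the difference between the tissues singled out 369 genes with a higher CR minus AL value in iWAT than in liver and 307 with a lower one. Among those past the authors' FDR in both tissues with opposite signs and a log2 mean CPM of at least 2 in both, predicted genes and Rik clones left out, the largest positive differences were those of Retsat (3.05), Lss (2.98), Msmo1 (2.72), Sqle (2.69), Cyp51 (2.64), Idi1 (2.58), Fdft1 (2.56) and Mvk (2.40). The largest negative ones were those of Spp1 (-2.73), Inmt (-2.45), Klhl13 (-2.43), Egfr (-2.11), Abcb1a (-1.90), Sucnr1 (-1.85), St5 (-1.72) and Itih5 (-1.61), all in log2 units. Values per library were not available for a check of single mice.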

How the results depend on the processing

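The counts depend on the errors assumed. The genes higher and lower in iWAT numbered 369 and 307, against 650 and 581 with a correlation of 0.3 between the tissues and 214 and 147 with one of -0.3. They numbered 165 and 99 under a t distribution with 20 degrees of freedom, 112 and 59 with standard errors 25% larger, and 189 and 124 over transcripts. Centring, a log2 CPM of at least 1, other limits for setting genes apart (8-fold, 32-fold or none) and a difference of at least 1 moved these counts by less than 1.5 times. The balance of the directions did change: 325 were higher and 354 lower after centring, and 371 and 438 with none set apart. At FDR under 0.01 and under 0.1, 16 and 49 genes rose in iWAT and fell in liver, 4 and 31 did the reverse, 44 and 131 rose in both and 11 and 35 fell in both.

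With standard errors 25% larger the members higher in iWAT were 6 in fatty acid synthesis, 10 in fatty acid oxidation (1 lower), 1 in the respiratory chain, 3 in the TCA cycle, 4 in glycolysis, 2 in the clock, 2 among thermogenic genes and 1 in the interferon response. They were 0 for branched-chain breakdown, the proteasome, the endoplasmic reticulum list, mitochondrial ribosomes, the cell cycle, and for glucocorticoid and NRF2 genes in both directions. Lower members were 1 in insulin signalling and 2 in the matrix. With a correlation of 0.3, higher members were 39 in the respiratory chain, 7 of the mitochondrial ribosome and 2 of the cell cycle. Lower members were then 1 for branched-chain breakdown, 2 for the endoplasmic reticulum, 2 for the clock, 5 each for glucocorticoid and insulin genes, 3 for NRF2 and 19 for the matrix. Centring gave 1 higher and 1 lower gene in branched-chain breakdown, 1 lower clock gene and 0 higher glucocorticoid genes. For cholesterol synthesis these 3 alternatives left the count within 1.5 times, at 16 to 21 members higher, and the others were not run on the lists.

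Of 208 named genes none changed sign among those called. The 208 include genes that the main test did not call, among them many markers, and these could not lose a call. The losses below are therefore not shares of 208. Calls were lost for 19 with a correlation of -0.3, 41 with the t distribution, 52 with larger errors, 2 by centring and 40 of 206 for the most abundant transcript, and gained for 16 with a correlation of 0.3 and 2 by centring. No paired analysis was possible because the tables hold comparisons of groups and no values per mouse, and leaving out replicates was not run for the same reason. Depth per library is unknown, so what depth limits cannot be said.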
